A study of Homo sapiens with 2 samples.

Results

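The WNT, NOTCH, BMP and TGF-beta pathways are among the main signalling routes by which cells read secreted or membrane-bound cues from their neighbours. Genes of these pathways were compared between S2-013 cells, a human pancreatic cancer cell line, with and without a MEK inhibitor. Members were taken by name, under a rule set with earlier results of these data known. They are the genes whose symbol starts with WNT, FZD, DKK, SFRP, AXIN, NKD, TCF7, BMP, SMAD, TGFB, INHB, ACVR, GDF, LTBP, NOTCH, HES and a digit, HEY, JAG or DLL, plus BAMBI, with 5 antisense genes left out. This gave 83 of the 13763 genes named on the array. The naming rule uses no difference between the arrays, and genes of these families outside the 83 are not analysed here.

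Both samples were S2-013 cells in which HOXB7, a homeobox transcription factor, had been knocked down and then supplied again from a rescue plasmid. The MEK_inhibitor sample received a MEK inhibitor, and the control sample did not. MEK is the kinase that activates ERK. Which inhibitor was used, at what dose and for how long is not stated, nor is whether the knockdown cells were 1 clone. Neither parental cells nor knockdown cells without rescue are analysed here. S2-013 is a subline of SUIT-2. The labels call the cells both a cell line and a primary pancreatic cancer.

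Each condition had 1 Affymetrix whole-transcript array, so replicate error is unknown throughout and no test was possible. Levels are probe set values on a log2 scale, which was inferred from the values, and differences are inhibitor minus no inhibitor on that scale. The 2 arrays had medians of 3.46 and 3.49 over 53617 probe sets. A gene was treated as above the floor if at least 1 of its values was 4.78 or more, which is the median of the genes' mean levels. That floor was reached by 7164 genes, and 120 of these (1.68%) differed by at least 2-fold. Probe sets that read the same gene had differences that lay 0.16 apart at the median and no more than 0.80 apart for 95% of 443 pairs from 145 genes. With the pairs of each gene reduced to their median, 95% of the 145 genes lay no more than 0.56 apart. This disagreement covers probe error within the arrays and not the spread between cultures. The ERK-dependent genes DUSP6 and SPRY4 read -1.26 and -2.15, and HOXB7 read 0.01. Cell type markers were counted only where the array annotation names them, which leaves out listed ones such as CDH1, COL1A1 and PTPRC. All 7 epithelial markers so found reached the floor, among them EPCAM and KRT18. So did 1 of 3 fibroblast, 2 of 5 endothelial, 2 of 3 leukocyte and 1 of 5 acinar and endocrine markers. In a bulk sample, fewer cells that express a gene and less RNA per cell cannot be told apart.

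In the WNT pathway, secreted ligands bind Frizzled receptors, and the signal spares beta-catenin from a destruction complex built on AXIN. In the NOTCH pathway, JAG and DLL ligands on a neighbouring cell trigger cleavage of the receptor, whose inner part then switches on HES and HEY repressors. BMP, GDF, activin and TGF-beta ligands act through serine/threonine kinase receptors that phosphorylate SMAD proteins, and TGF-beta is stored in the matrix in a latent complex with LTBP proteins. In pancreatic cancer, TGF-beta signalling is best known for the frequent loss of SMAD4.

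Of the 83 members, 39 reached the floor, 34 of them on both arrays, 3 only with the inhibitor and 2 only without it. A gene that reaches the floor on 1 array only is favoured by the filter if it differs, so values over all 83 are given too. Just 1 member, LTBP3, differed by at least 2-fold, and it was lower. The background among the 7164 genes was 1.05% lower and 0.628% higher at that size. No member was 2-fold higher, with or without the floor, and without it the background was 0.407% higher and 0.625% lower. At 1.5-fold there were 2 members higher (FZD2 and BMP6) and 4 lower (LTBP3, JAG1, SMAD6 and BMP2), together 15.4% of the 39. The share over all genes above the floor was 8.22%, made of 4.62% higher and 3.6% lower. BAMBI and FZD6 complete the 8 members that differed by 0.5 or more, 20.5% of the 39 beside 11.8% of all genes above the floor. Without the floor the share past 1.5-fold was 7.23% of the 83 beside 5.79% of 13763 genes, and that of 0.5 or more was 10.8% (FZD1 being the 9th) beside 8.86%. Members were chosen with earlier results of these data known, so no excess can be read from these shares. SMAD6 reached the floor only without the inhibitor. The members had no common direction: 18 of 39 were higher and 21 lower, with a median of -0.01, beside 0.03 over all 7164 genes. Over all 83 the median was -0.02, with 37 higher and 46 lower.

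**Figure D1:**
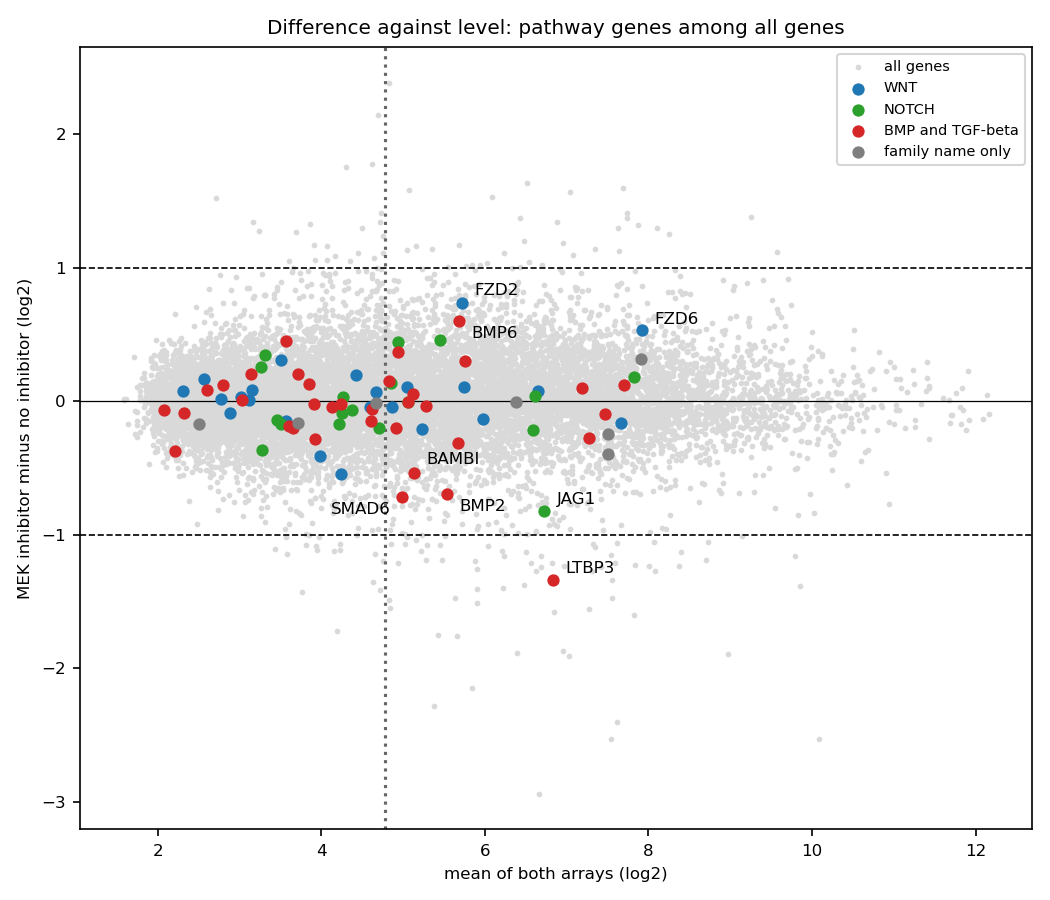
Difference between the arrays (log2, vertical axis) against the mean of both arrays (log2, horizontal axis) for 13763 genes in grey and the 83 members coloured by pathway. Dashed lines mark 2-fold, the dotted line the floor of 4.78, and names the 8 members above the floor with a difference of 0.5 or more. LTBP3 is the only member beyond a dashed line.

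The sequence just before the start of transcription is shown for the 5 of these 8 genes that had a promoter window. The windows at hand did not include FZD2, BMP2 or FZD6, so the matches shown do not cover them. Each run is the 250 bases upstream of the start, 5′ to 3′ on the gene's strand, from RefSeq on GRCh38.p14. Capitals mark a match, on either strand, to motifs of factors that act at the end of these pathways or of ERK. The motifs were GTCTAGAC (the palindromic SMAD element), GGCGCC (a GC-rich SMAD element of BMP targets), CCGGAA (ETS), TGANTCA (AP-1), ATCAAAG (TCF) and GTGGGAA (RBPJ). None of the matches shown overlap. LTBP3 lies at chr11:65558360-65558609 on the minus strand, JAG1 at chr20:10674000-10674249 on the minus strand, SMAD6 at chr15:66701986-66702235 on the plus strand, BAMBI at chr10:28677271-28677520 on the plus strand and BMP6 at chr6:7725849-7726098 on the plus strand. LTBP3 has 2 listed starts, and the more upstream is shown.
LTBP3: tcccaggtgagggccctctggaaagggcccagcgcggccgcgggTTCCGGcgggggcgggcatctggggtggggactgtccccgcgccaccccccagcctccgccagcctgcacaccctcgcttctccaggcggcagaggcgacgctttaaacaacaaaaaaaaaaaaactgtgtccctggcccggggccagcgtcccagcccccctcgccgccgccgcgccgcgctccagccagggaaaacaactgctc
JAG1: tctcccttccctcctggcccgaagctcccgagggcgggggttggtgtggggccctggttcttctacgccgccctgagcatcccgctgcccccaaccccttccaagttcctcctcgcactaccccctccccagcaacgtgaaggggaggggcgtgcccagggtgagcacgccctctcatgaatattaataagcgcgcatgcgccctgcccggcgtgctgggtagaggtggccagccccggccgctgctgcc
SMAD6: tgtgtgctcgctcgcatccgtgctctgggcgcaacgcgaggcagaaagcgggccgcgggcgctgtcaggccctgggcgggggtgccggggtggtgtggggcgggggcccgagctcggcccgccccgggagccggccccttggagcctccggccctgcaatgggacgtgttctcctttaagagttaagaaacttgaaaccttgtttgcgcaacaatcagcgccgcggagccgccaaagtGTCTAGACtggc
BAMBI: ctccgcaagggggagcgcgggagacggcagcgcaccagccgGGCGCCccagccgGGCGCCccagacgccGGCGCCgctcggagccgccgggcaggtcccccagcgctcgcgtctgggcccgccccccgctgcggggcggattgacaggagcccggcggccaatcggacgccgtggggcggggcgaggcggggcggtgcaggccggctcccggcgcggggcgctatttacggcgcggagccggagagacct
BMP6: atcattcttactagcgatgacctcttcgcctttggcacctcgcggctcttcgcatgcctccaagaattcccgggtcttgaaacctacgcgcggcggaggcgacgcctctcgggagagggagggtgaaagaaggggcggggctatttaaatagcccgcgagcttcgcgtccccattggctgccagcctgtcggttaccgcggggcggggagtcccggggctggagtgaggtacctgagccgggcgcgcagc
The SMAD6 window held the palindromic SMAD element, the longest of the 6 motifs. That element was found in 0.183% of 34943 windows of this length and in 1 of 84 member windows (1.19%). SMAD6 is the inhibitory SMAD of the BMP branch. The BAMBI window held GGCGCC at 3 places. That motif was found in 16.4% of all windows and in 27 of 84 member windows (32.1%), whose mean G and C content was higher (66.0% against 57.2%). The LTBP3 window held 1 ETS match as TTCCGG, the motif on the other strand, and 14.5% of all windows hold one. The JAG1 and BMP6 windows held none of the 6 motifs. Among the 84 member windows, from 61 genes, 10 held the ETS motif (11.9%), 3 the AP-1 motif (against 6.59% of all windows), 5 the RBPJ motif (against 5.41%) and 0 the TCF motif (against 2.27%). These are letter matches only, and no binding was measured.

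The widest difference was in the storage arm of the TGF-beta pathway. LTBP3 encodes a latent TGF-beta binding protein, which joins the latent TGF-beta complex before secretion and helps to anchor it in the matrix. Its probe set (16740412) read 7.50 without the inhibitor and 6.16 with it, a difference of -1.34 or 2.53-fold lower. Both values lay above the floor, and LTBP3 ranked as the 29th lowest difference of the 7164 genes. It was also larger than the 0.80 that bounds 95% of same-gene probe set pairs. LTBP3 had a single probe set, so no second reading of it exists here. LTBP2, an LTBP family protein of elastic fibres that does not bind latent TGF-beta, read 5.83 without and 5.52 with the inhibitor (-0.32). The dimmer second probe set of LTBP2 read -0.27. LTBP4 read 5.30 and 5.26 (-0.04). All 3 above the floor were thus lower, with a median of -0.32, but LTBP2 and LTBP4 lay under the 0.80 seen between probe sets. LTBP1, below the floor, went the other way, from 3.35 to 3.80 (0.45).

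Among BMP and GDF ligands, those with the widest differences went in opposite directions. BMP2, a ligand that drives bone formation and SMAD1/5 signalling, read 5.88 without the inhibitor and 5.19 with it (-0.70). BMP6, a ligand best known for inducing hepcidin in the liver, read 5.38 and 5.98 (0.60). BMP8B read 4.75 and 5.11 (0.36), starting below the floor, and BMP8A read 5.61 and 5.91 (0.30). BMP2 and BMP6 both passed 0.56, which bounds the median gap between probe sets of the same gene in 95% of 145 genes. Neither passed the 0.80 of single pairs. The BMP8 paralogs are neighbours and have near-identical coding sequences, so their probe sets may share signal. BMP4, a close relative of BMP2, read 7.13 and 7.23 (0.10). GDF15, a stress-induced cytokine, read 7.41 and 7.13 (-0.28). GDF7 and GDF11 read 0.15 and -0.01. Like BMP8B, GDF7 reached the floor only with the inhibitor, so the filter favours both as higher. Of the 8 ligands above the floor 5 were higher and 3 lower, with a median of 0.12, and over all 20 the median was -0.02. The 12 ligands below the floor (BMP3, BMP5, BMP7, BMP10, BMP15, GDF1, GDF2, GDF3, GDF5, GDF6, GDF9 and GDF10) had differences from -0.37 (GDF9) to 0.12 (GDF6).

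Of the inhibitors inside BMP and TGF-beta signalling, SMAD6 and BAMBI read lower and SMAD7 was level. SMAD6, which blocks BMP receptors and SMAD1, read 5.35 without the inhibitor and 4.63 with it (-0.72), ending below the floor. The annotation ties its probe set to a non-coding SMAD6 transcript, so its reading of the coding messenger was not tested. BAMBI, a pseudoreceptor without a kinase domain that sits in receptor complexes and dampens BMP and TGF-beta signals, read 5.40 and 4.86 (-0.54). SMAD7, the inhibitory SMAD that acts on TGF-beta as well as BMP receptors, read 5.09 and 5.15 (0.06). BMPER, a secreted BMP binder, was below the floor and read -0.18. The median was -0.54 over the 3 inhibitors above the floor and -0.36 over all 4. None of these differences passed the 0.80 that bounds the gap in 95% of same-gene probe set pairs. That of SMAD6 passed 0.56, the same bound with the pairs of each gene reduced to their median.

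Among SMADs that carry the signal, SMAD2, a TGF-beta and activin effector, read 7.64 without and 7.76 with the inhibitor (0.12). SMAD3, its partner, read 5.02 and 4.82 (-0.20), and the BMP effector SMAD5 read 7.51 and 7.42 (-0.10). SMAD4, the common partner of all branches, was below the floor on both arrays (3.04 and 3.24), as were SMAD1 (0.20) and SMAD9 (0.13). The only receptor among the members, ACVRL1, a BMP9 receptor of endothelial cells, read 4.06 and 3.78 and was below the floor too. The median of the 3 signal-carrying SMADs above the floor was -0.10, and over all 6 it was 0.12, so the group has no direction that holds without the filter.

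**Figure D2:**
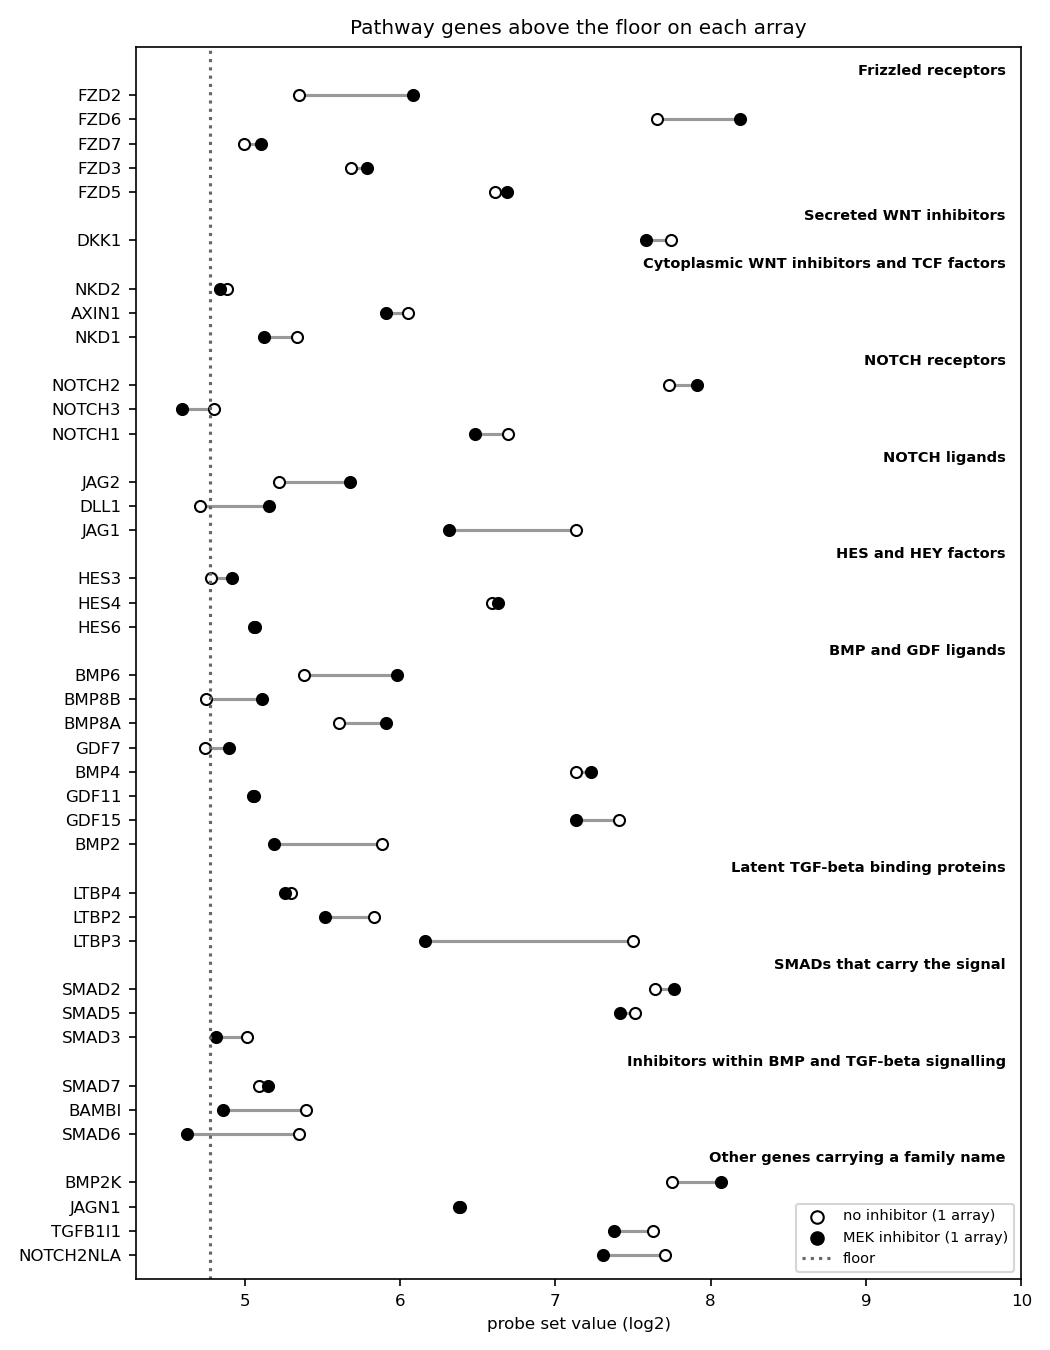
Probe set values (log2, horizontal axis) of the 39 members above the floor, without (open) and with (filled) the MEK inhibitor, 1 array each, grouped by role; the dotted line is the floor of 4.78. The longest segment is LTBP3 (7.50 to 6.16), and within the NOTCH ligands JAG1 runs the opposite way to JAG2 and DLL1.

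NOTCH ligands differed in opposite directions. JAG1, a Jagged ligand found in many carcinomas, read 7.13 without the inhibitor and 6.31 with it, a difference of -0.82 or 1.77-fold lower. Both values lay well above the floor, and it ranked as the 122nd lowest of 7164 genes, just past the 0.80 seen between probe sets. JAG2, the second Jagged ligand, read 5.22 and 5.68 (0.46). DLL1, a Delta-like ligand, read 4.71 and 5.15 (0.44), starting below the floor. DLL3, a ligand that acts mainly as an inhibitor inside the cell, and DLL4, best known from blood vessels, were below the floor and read 0.34 and -0.17. The median of 0.44 over the 3 ligands above the floor therefore does not describe JAG1.

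NOTCH receptors and HES factors differed little. NOTCH2 read 7.73 without and 7.91 with the inhibitor (0.18). NOTCH1 read 6.70 and 6.48 (-0.21), and NOTCH3 read 4.80 and 4.60 (-0.20), ending below the floor, with NOTCH4 below it on both (-0.09). The HES family genes HES4 (6.59 and 6.63), HES6 (5.07 and 5.06) and HES3 (4.79 and 4.92) differed by 0.04, -0.01 and 0.13. HES6 is known as an antagonist of HES1. The difference of HES4 turned to -0.01 when a loess trend was subtracted, the only member above the floor whose sign depended on either scaling. HEY1, HEY2, HEYL, HES2, HES5 and HES7 were below the floor, from -0.37 (HEY1) to 0.26 (HES5). None of the 9 HES and HEY members thus differed by 0.5, with or without the floor. HES1 is not among the members, so no value is given for it.

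Frizzled receptors above the floor were all higher. FZD2 read 5.35 without the inhibitor and 6.08 with it (0.73, or 1.66-fold), the highest difference of any member. FZD6, a Frizzled linked to planar polarity and to restraint of beta-catenin signalling, read 7.65 and 8.19 (0.53). FZD7 (4.99 and 5.10), FZD3 (5.69 and 5.79) and FZD5 (6.61 and 6.69) differed by 0.11, 0.10 and 0.08, within the median disagreement of probe sets. The 5 had a median of 0.11. Below the floor the picture was mixed: FZD1 read 4.51 and 3.96 (-0.55), FZD8 4.18 and 3.77 (-0.41), and FZD4, FZD9 and FZD10 between -0.05 and 0.03. Over all 10 receptors 7 were higher and the median was 0.05. FZD2 and FZD6 ranked 163rd and 411th highest of 7164 genes. Both lay under the 0.80 of probe set pairs, and FZD2 passed 0.56, the bound on the median gap of a gene.

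The WNT inhibitors on both sides of the membrane differed by less than 0.5. DKK1, a secreted blocker of the LRP co-receptors, read 7.75 without and 7.58 with the inhibitor (-0.16). It was the only secreted inhibitor above the floor, and DKK2, DKK3, DKK4, SFRP1, SFRP2, SFRP4 and SFRP5 differed by -0.15 to 0.20 below it. NKD1, a Dishevelled antagonist induced by WNT signals, read 5.34 and 5.13 (-0.21), and NKD2 read 4.88 and 4.84 (-0.04). AXIN1, the scaffold of the destruction complex, read 6.05 and 5.91 (-0.14). AXIN2, a widely used target gene of beta-catenin, was below the floor and read 3.35 and 3.65 (0.31). The only WNT ligand among the members, WNT2, was below the floor (2.92 and 2.83).

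**Figure D3:**
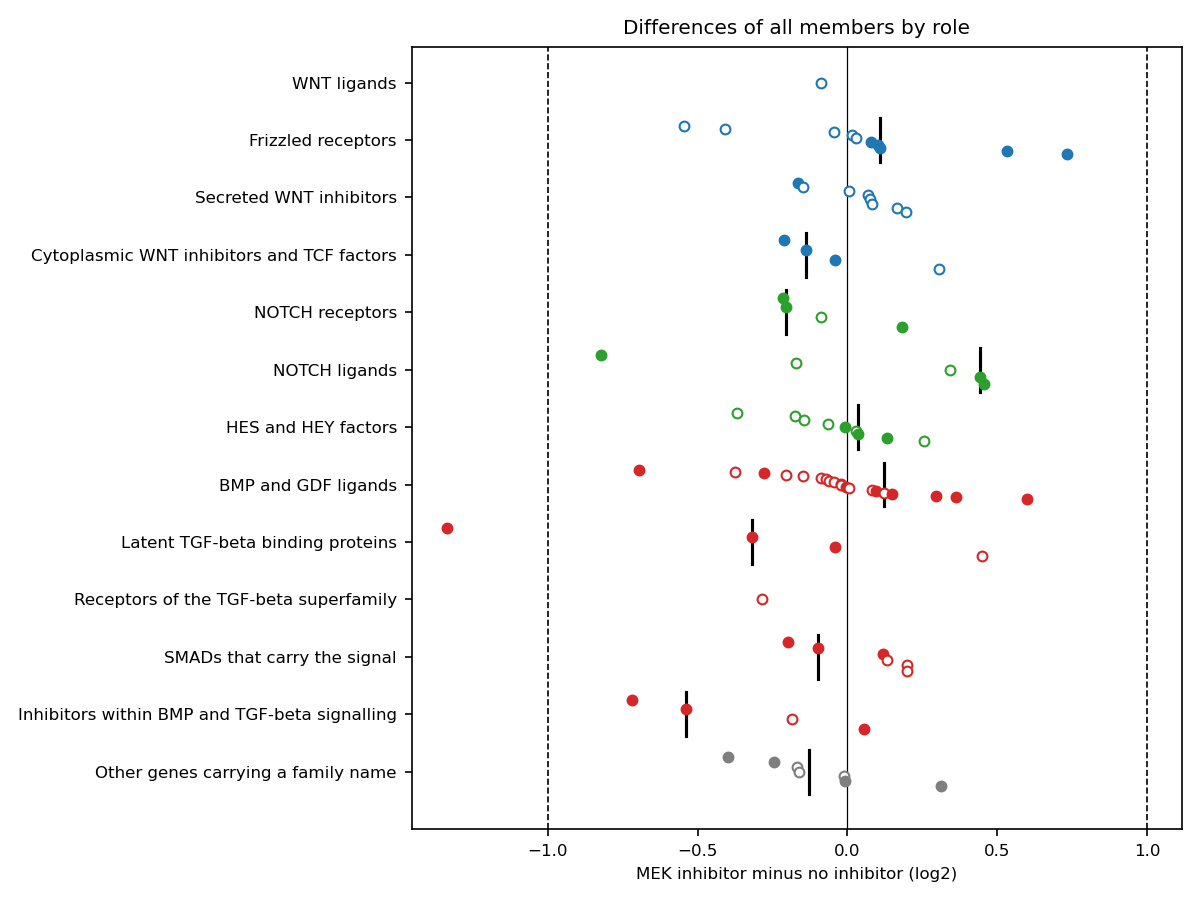
Differences (log2, horizontal axis) of all 83 members by role; filled points reached the floor, open points did not, black bars are medians of groups with at least 3 filled points, and dashed lines mark 2-fold. LTBP3 (-1.34) stands alone beyond 2-fold, and the medians lie from -0.54 (inhibitors of BMP and TGF-beta signalling) to 0.44 (NOTCH ligands).

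The rule also took 7 genes that carry a family name and act elsewhere or were kept apart from the roles above. BMP2K, a kinase of the AAK1 family, read 7.75 and 8.06 (0.31). NOTCH2NLA, a partial copy of NOTCH2 made in human evolution, read 7.71 and 7.31 (-0.40), against 0.18 for NOTCH2, and probe sets of such close copies may share signal. TGFB1I1, the focal adhesion protein HIC-5, read 7.63 and 7.38 (-0.25), and JAGN1, a protein of the endoplasmic reticulum, -0.01. BMP1, a procollagen protease, DKKL1 and the non-coding FZD4-DT were below the floor and read -0.01, -0.16 and -0.17. Without these 7 the median over members above the floor was still -0.01.

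Pathway genes outside these families were described from lists of cofactors, enzymes and targets. Of 127 such genes on the array 76 reached the floor. None was 2-fold higher and 2 were 2-fold lower, SOX9 and SNAI2 (2.63%, beside 1.05% of all genes above the floor). At 1.5-fold in either direction the share was 7.89%, beside 8.22% of all genes above the floor. The lists were made with earlier results of these data known, so no excess can be read from these shares. Of the 76 genes 39 were higher and 37 lower, with a median of 0.01.

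Of the 23 further WNT genes above the floor, 12 were higher and 11 lower. SOX9, a progenitor transcription factor of pancreatic ducts that is regulated by WNT signals in the gut, read 8.03 without the inhibitor and 6.79 with it (-1.24, or 2.37-fold lower). PRICKLE1, a planar polarity protein, read -0.63. RNF43, a ubiquitin ligase that removes Frizzled receptors from the surface and is itself a WNT target, read 5.37 and 4.80 (-0.58). MYC read -0.35. At the other end were ROR1, a WNT5A receptor kinase (0.73), BTRC, the ubiquitin ligase subunit that marks beta-catenin for destruction (0.54), LGR4, a receptor for R-spondins (0.41), and DAAM1, a formin of the polarity branch (0.41). The co-receptor genes LRP5 (7.74 and 7.75) and LRP6 (7.84 on both arrays) were level, and the destruction complex genes APC and GSK3B read 0.01 and 0.15. SOX9 alone in this list passed 2-fold.

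Of the 29 further NOTCH genes above the floor, 13 were higher and 16 lower, and none differed by 0.5. NUMBL, a relative of the NOTCH antagonist NUMB, read 0.49, and CTBP1, a corepressor, 0.47. PSEN2, a catalytic subunit of gamma-secretase, and ADAM17, a sheddase, both read 0.40. The lowest were the deacetylase HDAC2 (-0.44, and 0.16 in its dimmer second probe set), DLK2, a non-canonical ligand (-0.42), MAML3, a coactivator (-0.41), and ITCH, a ubiquitin ligase (-0.29). RBPJ, the DNA-binding partner of the cleaved receptor, read 6.82 and 6.58 (-0.24).

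Of the 24 further BMP and TGF-beta genes above the floor, 14 were higher and 10 lower. SNAI2, a repressor of epithelial genes that TGF-beta can induce, read 7.90 and 6.80 (-1.09). NOG, the secreted BMP antagonist Noggin, read 5.61 without and 4.98 with the inhibitor (-0.63). The BMP-binding proteins TWSG1 and CRIM1, picked after their values were seen, read 0.20 and 0.19. Other BMP binders below the floor were mixed. CHRD and GREM1 each read -0.22 and CHRDL1 -0.06, while CHRDL2 read 0.16. JUNB read -0.48, and ZEB1, a repressor of E-cadherin, -0.29. The highest were THBS1, a matrix protein that can activate latent TGF-beta (9.31 and 9.94, 0.63), FBN1, the fibrillin to which LTBP proteins attach (0.52), FSTL3, an activin antagonist (0.41), and SMURF2, a ubiquitin ligase of SMADs and their receptors (0.34). CCN2, a TGF-beta and YAP target, read 0.15.

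**Figure D4:**
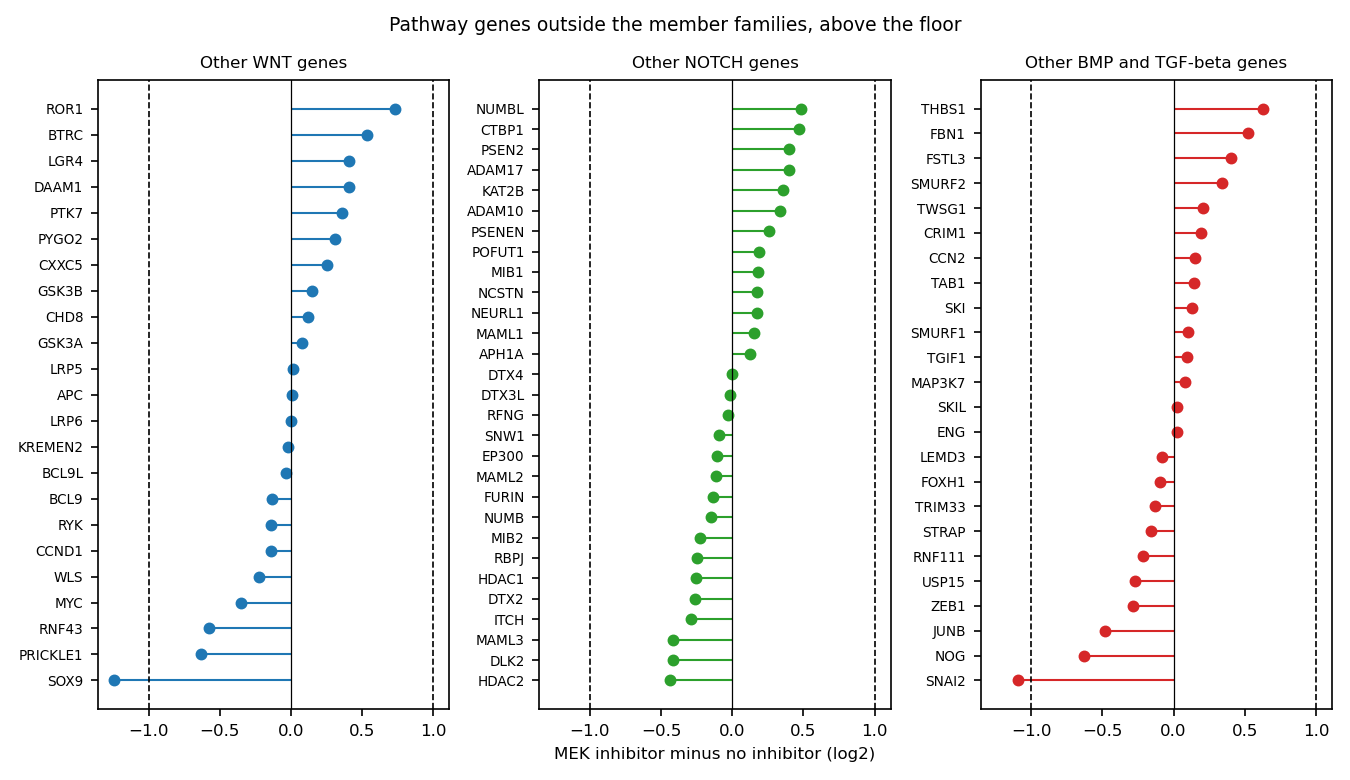
Differences (log2, horizontal axis) of the 76 pathway genes outside the member families that reached the floor, by list; dashed lines mark 2-fold. SOX9 (-1.24) and SNAI2 (-1.09) lie beyond 2-fold, and all NOTCH genes lie within 0.5 of 0.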

How the data were processed

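Total RNA of 2 samples was measured on Affymetrix whole-transcript arrays, 1 per group, with groups taken from the sample titles. The deposited table gives a value for every probe set on each array, taken as log2 because of its range. Affymetrix Expression Console 1.3 is named in the submitters' processing notes, without its settings. Quantiles of the arrays are nearly equal, a state in which any difference in total RNA output is lost, and arrays of this kind understate large folds. Detection calls were not used, and the number of arrays limits the precision.

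Symbols came from the platform annotation (16098 probe sets with 1 gene symbol, none with several, and 37519 unnamed). Small RNA probe sets were kept apart. For each gene its brightest probe set by mean was used. Role groups and lists were assigned by symbol, and members, lists and tests were chosen with earlier results of these data known. Values are given for each member above the floor with a difference of at least 0.5, for the highest level and the highest and lowest difference per role group, and for the 4 highest and 4 lowest genes per further list. Other members are given more briefly. LRP5, LRP6, APC, GSK3B, RBPJ, TWSG1, CRIM1, CHRD, GREM1, CHRDL1, CHRDL2 and CCN2 were named after their values were seen. The probe set disagreement left out 45 genes with identical copies. Alternatives were other scalings, filters, probe set averaging and thresholds. Python 3.11.15, numpy 2.4.6, pandas 2.3.3 and statsmodels 0.14.6 were used. Promoter windows matched 61 of 83 members by gene identifier.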

Additional observations from a re-analysis of the deposited data

How the results depend on the processing

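No paired analysis was possible because there is only 1 array per condition, which also leaves none to omit. A median or difference was taken as moved when it changed by 0.16 or more, the median disagreement between probe sets of a gene, and a count when it changed by over 1.5 times. Of 132 values recomputed under an alternative, 124 stayed within that and 8 moved. Many could not change, because a member with 1 probe set keeps its difference under another filter or probe set averaging. All 8 members with differences of 0.5 or more have 1 probe set. LTBP3 kept its direction, and SOX9 and SNAI2 were recomputed only within counts. With a 1.5-fold threshold 2 members were higher and 4 lower, 15.4% of those above the floor. Of the further pathway genes 2 were higher and 4 lower (7.89%). The share over all genes above the floor was 8.22%. At 3-fold the counts were 0 for both sets in each direction, so LTBP3, SOX9 and SNAI2 lie between 2-fold and 3-fold. Without the filter the median of the inhibitors within BMP and TGF-beta signalling was -0.36 and that of the signal-carrying SMADs 0.12, because members below the floor entered. Without the filter the median of BMP and GDF ligands also changed sign, to -0.02, and that of HES and HEY factors did so (-0.01), there and with the loess trend subtracted. The 8 members with differences of 0.5 or more kept their signs under every alternative in which they were measured, with LTBP3 between -1.38 and -1.34 and JAG1 between -0.87 and -0.82. The 75th percentile filter kept 15 members, too few for a median in most role groups. Signal over background limits the 44 members below the floor, whose detection is unknown.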

Other observations

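The further NOTCH list held enzymes that cut the receptor, and the values below were picked after they were seen. The sheddases ADAM17 and ADAM10 read 0.40 and 0.34, and the gamma-secretase subunits above the floor read 0.40 (PSEN2), 0.26 (PSENEN), 0.18 (NCSTN) and 0.12 (APH1A). FURIN, the protease that makes the first cut of the receptor, went the other way, from 7.13 to 6.99 (-0.14), as did APH1B below the floor (-0.13). In the whole list 13 of 29 genes above the floor were higher, and among all genes above the floor 3858 of 7164 were. Each of these differences lay under 0.56, which bounds the median gap between same-gene probe sets in 95% of genes with several. None of the enzymes named here had a second probe set. PSEN2 started below the floor, at 4.62.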
